A study of Mus musculus with 6 samples.

Results

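The enzymes that write and remove cytosine methylation were followed in retinal explants of Sall3 knockout and wild-type mice. Of the 8 genes chosen by symbol (Dnmt1, Uhrf1, Dnmt3a, Dnmt3b, Dnmt3l, Tet1, Tet2 and Tet3), 7 had a transcript cluster that carried their symbol alone. These 7 genes lay on 8 of the 100843 clusters of the array, among 19611 genes named in this way. Tet1 lay on 1 cluster that also carried another gene's symbol, so no value is given for it. All 8 clusters passed the filter on dim clusters. The samples were retinas of C57BL/6 mice of mixed sex, labelled either Sall3 knockout or wild-type, dissected at postnatal day 0 and then cultured for 7 days on floating membrane filters in medium with serum. Each of the 3 samples per genotype pooled 3 retinas and had an Affymetrix mouse exon array of its own. How the knockout allele was made is not given in the sources used here, and the labels do not tie the samples to litters or culture runs. The p-values therefore cover the spread among these 6 samples, part of which may be technical.

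DNA methylation in mammals is placed mainly on cytosines followed by guanine (CpG). Dnmt3a and Dnmt3b set new methyl groups, with Dnmt3l as a cofactor that has no catalytic activity of its own, and Dnmt1 copies the pattern onto the new strand after replication, guided by Uhrf1, which binds half-methylated CpG sites. The Tet enzymes oxidise methylcytosine, a step towards its removal. Sall3, a zinc finger protein of the Spalt family, is known from work in human cells as a binding partner of Dnmt3a, and the comparison asks whether the RNA of these enzymes differs where Sall3 is knocked out.

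The RefSeq starts of the members frame what a transcript cluster can tell. In the promoter table of build GRCm38.p6 all 8 genes matched, with 15 start windows of 250 bases before the start. Dnmt3a had 3 windows, the last of them 84764 bases downstream of the first, and Dnmt1 and Dnmt3l also had 3 each. A cluster gives 1 value per gene model, so transcripts from these separate starts cannot be told apart here. CpG counts in the windows ran from 2 to 51, against a median of 6 over all 32851 windows of the table. All 15 windows were searched for E2F-type sites, the elements through which many S phase genes are controlled, and for GC boxes and CCAAT boxes. The E2F letters searched were TTTGGCGC, TTTCGCGC and TTTCCCGC on both strands. The first and second of these can overlap a match on the opposite strand through their last 4 letters. Of the 15 windows 2 held an E2F match, the last window of Dnmt1 and the last of Uhrf1, and 1.53% of all windows held one. Among windows with at least the median CpG count the share was 2.79%. GC boxes (GGGCGG) were found in 11 of the 15 windows. They were found in 32.7% of all windows and in 58.6% of those with at least the median CpG count. CCAAT boxes (CCAAT) were found in 5 of the 15, against 33.8% and 33.1%. The 2 windows with an E2F match are shown 5′ to 3′ on the strand of the gene, with the match in capitals. They belong to the pair of genes that act together in copying methylation. Dnmt1 lies on the minus strand at chr9:20952624-20952873 and Uhrf1 on the plus strand at chr17:56304063-56304312.
Dnmt1: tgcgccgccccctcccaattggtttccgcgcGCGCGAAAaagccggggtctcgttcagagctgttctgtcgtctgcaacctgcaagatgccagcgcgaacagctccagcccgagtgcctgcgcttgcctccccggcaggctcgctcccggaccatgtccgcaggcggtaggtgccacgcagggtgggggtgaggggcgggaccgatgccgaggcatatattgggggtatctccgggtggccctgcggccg
Uhrf1: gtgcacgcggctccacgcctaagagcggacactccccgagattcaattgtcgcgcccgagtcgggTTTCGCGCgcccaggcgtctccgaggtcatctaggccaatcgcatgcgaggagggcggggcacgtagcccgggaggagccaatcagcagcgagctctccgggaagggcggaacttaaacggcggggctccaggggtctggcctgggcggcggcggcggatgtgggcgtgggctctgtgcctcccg
The Dnmt1 match reads GCGCGAAA, the reverse complement of TTTCGCGC, and begins 219 bases before the start. The Uhrf1 match reads TTTCGCGC and begins 185 bases before the start. A match describes letters in the window and says nothing of binding in these explants.

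The members also differed in how many CpG sites, the substrate of the encoded enzymes, stand before their own starts. Tet2 and Dnmt3l are shown as the extremes among the genes' first windows apart from Dnmt1, with each CpG in capitals. Tet2 lies on the minus strand at chr3:133544391-133544640 and had 51 CpG sites, a count reached by 0.067% of all windows. Dnmt3l lies on the plus strand at chr10:78042037-78042286 and had 5, a count reached by 55.6%.
Tet2: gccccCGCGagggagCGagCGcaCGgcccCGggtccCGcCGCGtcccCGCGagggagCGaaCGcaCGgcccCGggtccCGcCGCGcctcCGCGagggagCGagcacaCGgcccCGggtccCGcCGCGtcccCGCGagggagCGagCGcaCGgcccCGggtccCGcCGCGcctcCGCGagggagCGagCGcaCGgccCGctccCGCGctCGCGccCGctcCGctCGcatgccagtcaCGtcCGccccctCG
Dnmt3l: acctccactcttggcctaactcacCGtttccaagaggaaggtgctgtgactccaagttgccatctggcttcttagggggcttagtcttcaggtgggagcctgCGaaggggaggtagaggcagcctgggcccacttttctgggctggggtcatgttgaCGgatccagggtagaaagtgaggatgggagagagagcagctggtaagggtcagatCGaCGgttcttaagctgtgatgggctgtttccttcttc
The first Dnmt1 window had 2 CpG sites and its last 26. The first 2 windows of Dnmt3a had 38 and 40, and its downstream window 15. Dnmt3b had 21, Tet3 17 and Tet1 15. The arrays measure RNA, so methylation of these sites was not measured.

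Across the arrays, knockout 1 and wild-type 3 stood apart on the axis of largest variance, at -98.5 and 62.5 against 2.87 to 11.9 for the other 4. Correlations between arrays ranged from 0.954 to 0.977 within a genotype and from 0.940 to 0.970 between genotypes. The targeted gene, Sall3, had log2 signals of 6.24, 6.05 and 6.13 in knockout 1 to 3 and of 6.21, 6.36 and 6.33 in wild-type 1 to 3. The difference of -0.16 (SE 0.10) was not called by limma (adjusted p = 0.877). The positions of its probes are unknown with respect to the targeted exons, and the value therefore checks no label. The measured markers of rods (Pde6b, Gnat1 and Nrl) and of bipolar, amacrine and Müller glial cells had log2 signals of 6.88 and above in both groups. Measured were 3 of 5 rod, 4 of 5 bipolar, 5 of 5 amacrine and 4 of 5 Müller glial markers. Without detection values, their height over background is unknown. Fewer cells of a type and less RNA per cell cannot be told apart in such bulk samples.

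No member was called different between the genotypes. With limma p-values adjusted by Benjamini-Hochberg over the 75632 kept clusters, 0 of the 7 genes passed an adjusted p under 0.05. Of all clusters 0 passed (0%), with 4969 at an unadjusted p under 0.05. At that unadjusted threshold the number of members was also 0, against 1.60% of the 17468 genes in the same fit. A fit with 1 row per gene, which has a smaller pooled spread, gave 0 members as well, against 4.45% of genes. On the brightest cluster of each gene, the log2 differences, always given as knockout minus wild-type, ran from -0.11 for Uhrf1 to 0.06 for Tet2. Their median was -0.02, beside -0.01 over all genes. With the values as deposited the 2 medians were -0.01 and 0.01, and with median centring -0.01 and 0.02. Under these scalings Tet2 stood at 0.10 in each and Dnmt3a and the brighter of the 2 Tet3 clusters at -0.01. The dimmer Tet3 cluster stood at -0.08 in each. A difference of 0 lay inside all 7 intervals, and the widest 95% intervals, those of Tet2 and Tet3, reached from 0.842-fold to 1.29-fold and from 0.785-fold to 1.20-fold of the wild-type signal. Smaller differences than these bounds are not shown to be absent. Any background in the probe signal, which is unknown here, would shrink these folds relative to those of the RNA.

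**Figure D1:**
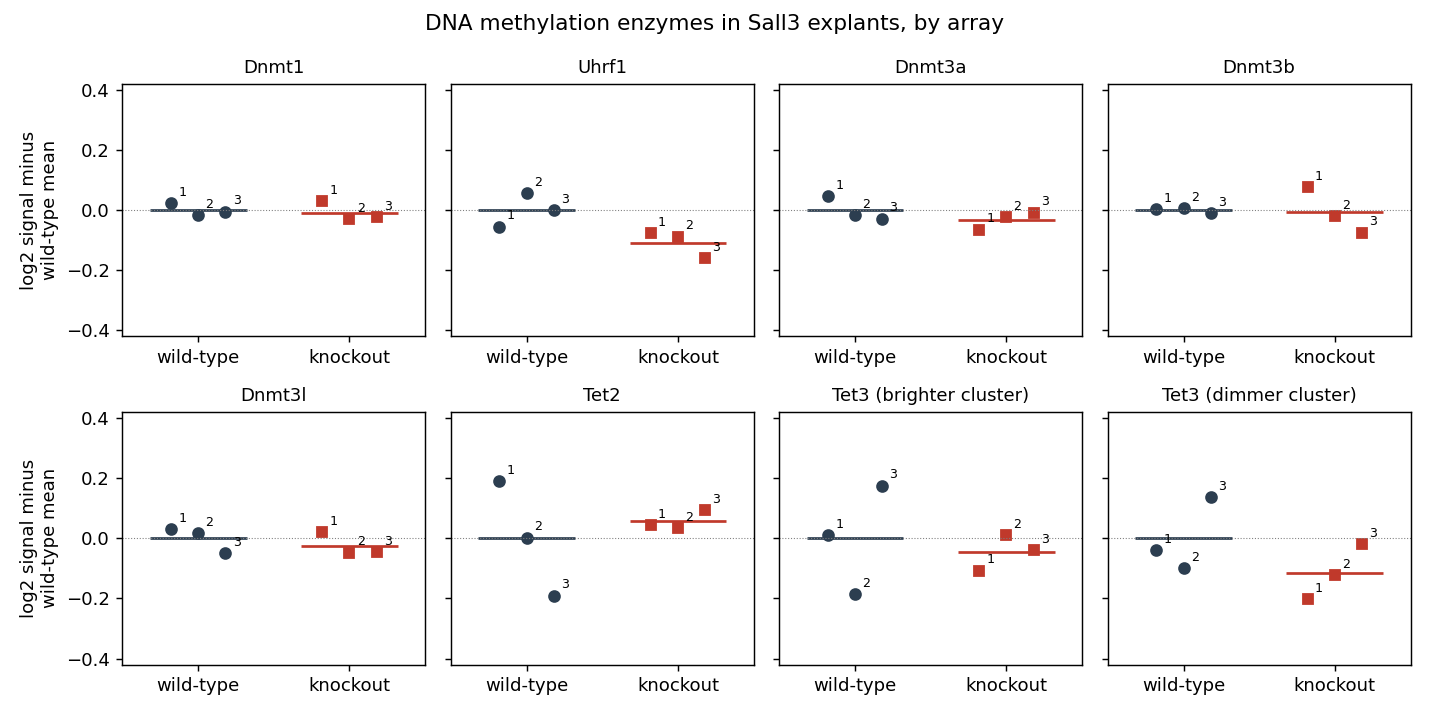
Log2 signal of each transcript cluster minus its wild-type mean (vertical axis), by genotype, with a numbered point per array and a bar at the group mean of 3 arrays. Points of both genotypes overlap in every panel except Uhrf1, and the wild-type arrays of Tet2 and Tet3 are the most spread.

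Dnmt1, the maintenance methyltransferase, was nearly flat over the 6 arrays after quantile normalization. Its log2 signal was 9.37, 9.31 and 9.31 in knockout 1 to 3 and 9.36, 9.32 and 9.33 in wild-type 1 to 3. The groups overlapped completely, with the highest and the lowest value both among the knockout arrays. The means were 9.33 ± 0.03 and 9.34 ± 0.02 (SD, n = 3 each), a difference of -0.01 (SE 0.09, 95% interval -0.22 to 0.20, limma adjusted p = 0.997). The pooled SD within genotypes was 0.028 log2 units, and 4.77% of all genes had a smaller one. The sign of the Dnmt1 difference turned with the values as deposited (0.02) and with median centring (0.03). With median centring the arrays were also more spread, from 9.29 in knockout 3 to 9.43 in knockout 1.

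Uhrf1, the ring finger protein that brings Dnmt1 to half-methylated DNA, had the largest difference among the brightest clusters of the members. The dimmer Tet3 cluster, given below, stood at -0.12. Uhrf1 had 6.78, 6.77 and 6.70 in knockout 1 to 3 and 6.80, 6.91 and 6.85 in wild-type 1 to 3. The 2 groups did not overlap, with a gap of 0.02 between knockout 1 and wild-type 1. The means were 6.75 ± 0.04 and 6.85 ± 0.06 (SD, n = 3 each), and the difference of -0.11 (SE 0.09, 95% interval -0.33 to 0.11) was not called (limma adjusted p = 0.921). The exact permutation p was 0.1, two-sided, the smallest that 3 against 3 arrays can give. Groups without overlap on the lower side were found for 11.2% of all genes and on the higher side for 1.70%, so 1 of 7 members is near the background. This split depends on the scaling. With the values as deposited 3.75% of genes lay wholly lower and 4.60% wholly higher, and with median centring 5.35% and 2.44%. Under both of these scalings the Uhrf1 groups overlapped, with differences of -0.08 in each. With 1 row per gene the SE was 0.05 and the unadjusted limma p was 0.0845 (adjusted p = 0.924).

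The S phase and mitosis genes, in whose company Dnmt1 and Uhrf1 are usually transcribed, gave values to set beside these. Of 15 genes 14 were measured, and limma called 0 in either direction by adjusted p and 0 at an unadjusted p under 0.05. Their median difference was 0.01, with 8 above 0 and 6 below. By array, with the mean of the wild-type arrays set to 0, the list median was 0.12, -0.03 and -0.06 in knockout 1 to 3 and 0.02, 0.09 and -0.12 in wild-type 1 to 3. Pcna, the replication clamp to which Dnmt1 binds, had 5.85, 6.03 and 5.89 in knockout 1 to 3 and 6.07, 6.11 and 6.34 in wild-type 1 to 3. Its knockout arrays were all below its wild-type arrays, with a difference of -0.25 (SE 0.12, limma adjusted p = 0.799). The topoisomerase gene Top2a stood at 0.20 (SE 0.15) and the ribonucleotide reductase subunit Rrm2 at -0.25 (SE 0.18), both with overlapping groups. Top2a stood at 0.09 without knockout 1, and Rrm2 at -0.09 without wild-type 3.

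Among the de novo enzymes, Dnmt3a, the partner of Sall3, had 9.83, 9.87 and 9.89 in knockout 1 to 3 and 9.94, 9.88 and 9.87 in wild-type 1 to 3. Knockout 1 was the lowest array and wild-type 1 the highest, and the other 4 lay from 9.87 to 9.89. The means were 9.87 ± 0.03 and 9.90 ± 0.04 (SD, n = 3 each). The difference of -0.03 (SE 0.09, limma adjusted p = 0.977) had a 95% interval from 0.842-fold to 1.13-fold of wild-type. With 1 row per gene the interval ran from 0.903-fold to 1.06-fold. A smaller pooled SD than the 0.035 of Dnmt3a was found for 8.25% of genes.

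Dnmt3b, the other catalytic de novo enzyme, had 5.75, 5.66 and 5.60 in knockout 1 to 3 and 5.68, 5.69 and 5.67 in wild-type 1 to 3. The wild-type arrays lay inside the knockout range, with SDs of 0.01 and 0.08. The difference was -0.01 (SE 0.09, 95% interval -0.23 to 0.22, limma adjusted p = 0.999), and its sign turned with median centring (0.0013). Dnmt3l, the cofactor known best from germ cells, was measured on a cluster that fell below the 50th percentile of all clusters, at 5.02. It had 4.95, 4.88 and 4.89 in knockout 1 to 3 and 4.96, 4.95 and 4.88 in wild-type 1 to 3. The groups overlapped, and the difference was -0.02 (SE 0.09, limma adjusted p = 0.985). Without detection values, the height of Dnmt3l and Dnmt3b over background is unknown.

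The Tet enzymes varied more between wild-type arrays than the methyltransferases did. Tet2 had 8.74, 8.56 and 8.37 in wild-type 1 to 3 and 8.60, 8.59 and 8.65 in knockout 1 to 3. The knockout arrays fell inside the wild-type range, with an SD of 0.03 against 0.19 (n = 3 each). The difference was 0.06 (SE 0.12, limma adjusted p = 0.972). Without wild-type 3 it was -0.04 and without wild-type 1 it was 0.15. It stayed above 0 with any single array other than wild-type 3 left out, so the positive sign rests on wild-type 3.

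Tet3 was measured on 2 clusters. On the brighter (tc6955031) it had 11.48, 11.60 and 11.55 in knockout 1 to 3 and 11.60, 11.41 and 11.77 in wild-type 1 to 3. On the dimmer (tc6955032) it had 10.41, 10.49 and 10.60 in knockout and 10.58, 10.52 and 10.75 in wild-type arrays. Wild-type 3 was the highest array and wild-type 2 the lowest wild-type array on both, and knockout 1 was the lowest knockout array on both. The differences were -0.04 (SE 0.12, limma adjusted p = 0.978) and -0.12 (SE 0.11, limma adjusted p = 0.933). The brighter cluster stood at 0.04 without wild-type 3 and at -0.14 without wild-type 2. Wild-type 3, one of the arrays that stood apart, was thus the lowest array for Tet2 and the highest for Tet3. The pooled SDs of Tet2 and Tet3, 0.136 and 0.134, lay above those of 66.7% and 65.8% of genes, whereas the share was 22.2% or less for the other 5 members.

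**Figure D2:**
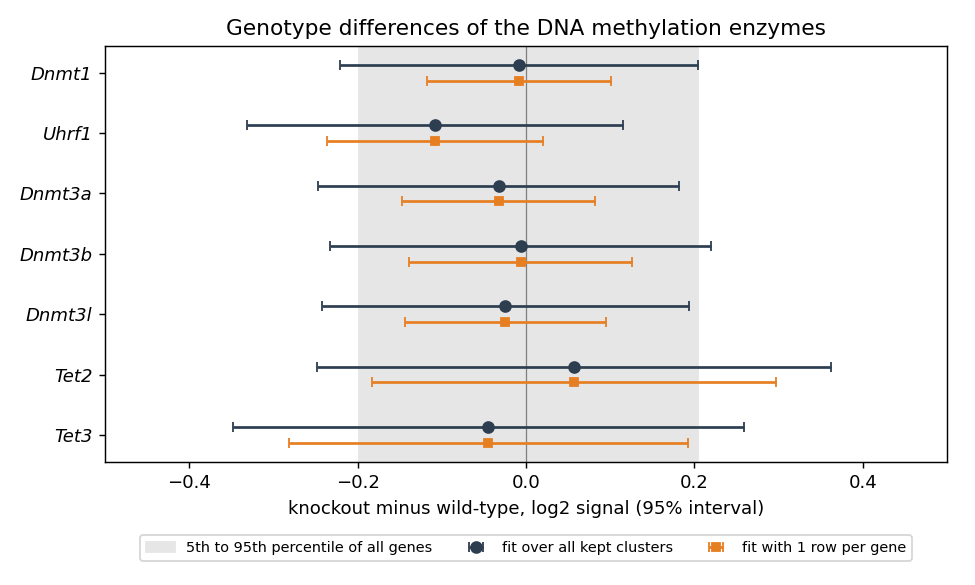
Knockout minus wild-type difference in log2 signal (horizontal axis) with its 95% interval for the 7 measured genes, in the fit over all kept clusters (circles) and in the fit with 1 row per gene (squares). The shaded band runs from -0.20 to 0.20, the 5th to 95th percentile of all 17468 genes, and all 7 differences lie inside it.

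The genes around the enzymes gave the same count of calls. Of 85 genes in 7 lists (readers, base excision, methyl donors, Tet cofactors, chromatin factors, silenced germline genes, and the S phase genes above) 68 were measured, and limma called 0 higher and 0 lower by adjusted p. At an unadjusted p under 0.05 the counts were 0 and 0, and with 1 row per gene 1 and 2, against the backgrounds of 1.60% and 4.45% given above. Those were Dppa3, higher, and Ung and Pcna, lower, none of which passed adjustment. Groups did not overlap for 8 of the 68 on the lower side (11.8%) and for 1 on the higher side (1.47%), shares near the 11.2% and 1.70% of all genes. The groups of listed genes were compared after quantile normalization only. Whether their separations hold under the other scalings, where that of Uhrf1 was lost, was not tested.

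The list of methyl-CpG readers and relatives of them or of Uhrf1 had a median of -0.02 over 8 of 11 genes. Mbd6, a member of the methyl-CpG binding domain family, stood at -0.19 (SE 0.15), the thymine glycosylase Mbd4 at 0.10 (SE 0.12) and the Uhrf1 relative Uhrf2 at 0.08 (SE 0.13), each with overlapping groups. Without wild-type 3, Mbd6 stood at -0.06, Mbd4 at 0.01 and Uhrf2 at -0.03. Base excision and demethylation genes had a median of -0.03 over 11 of 13. Gadd45a, a stress-induced gene that has been linked to active demethylation, had 8.37, 8.33 and 8.34 in knockout 1 to 3 and 8.38, 8.52 and 8.92 in wild-type 1 to 3. Its groups were separated by 0.0082 and wild-type 3 was far above the rest, with a difference of -0.26 (SE 0.16, limma adjusted p = 0.865), and of -0.11 without wild-type 3. The uracil glycosylase Ung had all knockout arrays below all wild-type ones, at -0.17 (SE 0.10, limma adjusted p = 0.859), and the glycosylase Smug1 stood at 0.19 (SE 0.15) with overlap, and at 0.06 without knockout 1.

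Genes of the methyl donor cycle had a median of -0.01 over 8 of 11. The methionine synthase reductase Mtrr stood at 0.12 (SE 0.13), and the adenosylhomocysteine hydrolase Ahcy and its relative Ahcyl2 at -0.09 (SE 0.14) and -0.07 (SE 0.10). Mtrr stood at 0.04 without knockout 1 and 0.02 without wild-type 3, and Ahcy turned to 0.03 without wild-type 2. Tet cofactors and partners had a median of -0.01 over 6 of 6. Cxxc5, a CXXC zinc finger protein of the Tet2 partner family, had its knockout arrays below its wild-type arrays by a gap of 0.0077, at -0.09 (SE 0.09, limma adjusted p = 0.933). Its relative Cxxc4 stood at -0.04, and Idh1, which makes the 2-oxoglutarate that Tet enzymes consume, at 0.11 (SE 0.12), with 0.04 without knockout 1 and 0.03 without wild-type 3.

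Chromatin factors that direct methylation were measured in 15 of 15, with a median of 0.04, 10 above 0 and 5 below. Of all genes 54.7% lay below 0 after quantile normalization, 42.5% with the values as deposited and 41.7% with median centring. The counts of the list are those after quantile normalization. By array, the list median was 0.08, 0.02 and 0.03 in knockout 1 to 3 and 0.05, 0.01 and -0.08 in wild-type 1 to 3. Without wild-type 3, Ehmt1, Kdm1b and Zfp57 turned below 0, and no gene of the list turned the other way. Groups did not overlap for 4 of the 15 on the lower side and for 1 on the higher side. Among all genes the shares were 11.2% and 1.70%, and they change with the scaling as given for Uhrf1. Dppa3, a protein that shields methylated DNA from Tet3 and restrains Uhrf1 in the egg, had the largest difference of the pathway lists, at 0.27 (SE 0.12, limma adjusted p = 0.781). It had 4.65, 4.77 and 4.82 in knockout 1 to 3 and 4.52, 4.61 and 4.31 in wild-type 1 to 3, without overlap, on a cluster below the 50th percentile. The histone methyltransferase Ehmt2 stood at -0.11 (SE 0.09) without overlap, and the helicase Hells at 0.17 (SE 0.13) with overlap, and at 0.05 without knockout 1. Germline genes that DNA methylation keeps silent in somatic cells were measured in 6 of 14, while 7 fell below the filter on dim clusters. All 6 lay below the 50th percentile of clusters. Their median was -0.01, from -0.05 for Tex101 to 0.13 for Ddx4, and Mov10l1 stood at -0.05, all with overlapping groups. Ddx4 stood at -0.02 without knockout 1, and Tex101 at 0.01 without wild-type 2. Ddx4 and Tdrd1 had identical values in knockout 2 and 3 (4.44 in each) and in wild-type 1 and 2 (4.48 in each). How far these germline genes stand above background is unknown, so a median near 0 says little about their silencing.

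**Figure D3:**
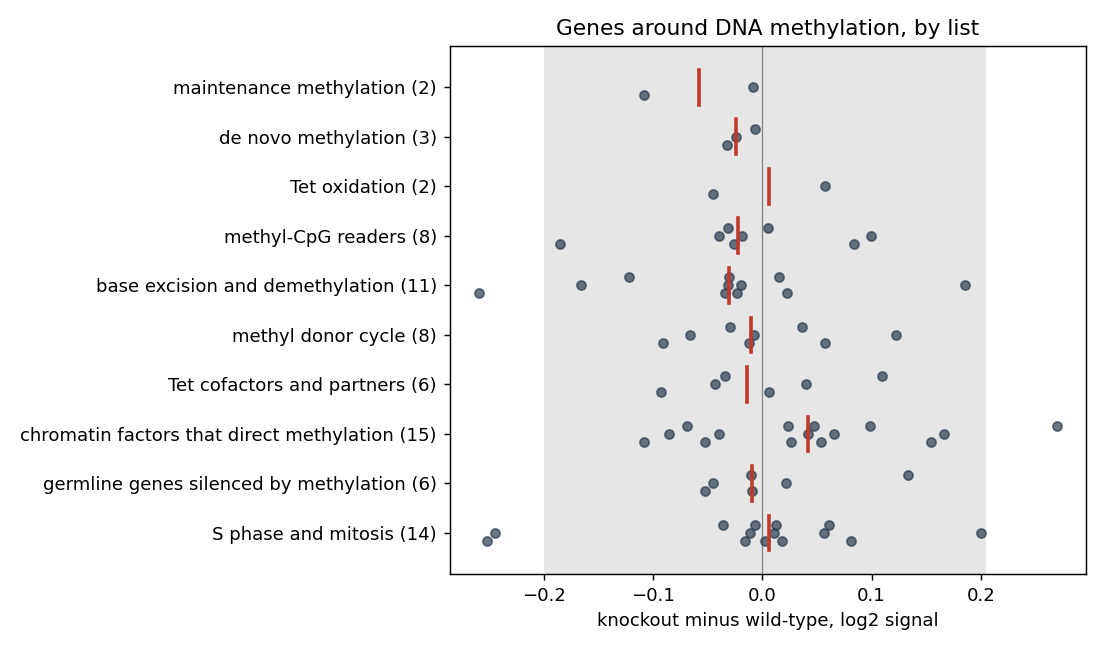
Knockout minus wild-type difference in log2 signal (horizontal axis) for the measured genes of each list (points, number in brackets), with the list median as a bar and the 5th to 95th percentile of all genes shaded. The medians lie between -0.06 and 0.04, and Dppa3 at 0.27 and Gadd45a at -0.26 are the outermost points on either side.

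Markers of other cells that the explants hold were set beside the members. Microglia markers stood below 0 in 7 of 7, with a median of -0.16 and array medians of 0.11, -0.22 and -0.41 in knockout 1 to 3 and 0.01, 0.10 and -0.14 in wild-type 1 to 3. Their summed level on the log2 scale spanned 10.58 to 11.12 in knockout and 10.92 to 11.10 in wild-type arrays. Cone markers had a median of -0.51 over 5, from -2.35 for the opsin gene Opn1sw to -0.18 for Gnat2, and 3 of them had an unadjusted limma p under 0.05. Horizontal cell markers had a median of -0.19 over 5, with 2 at that threshold, Lhx1 at -0.77 and Onecut1 at -0.64. No cone or horizontal cell marker passed adjustment (smallest limma adjusted p = 0.539), and 1.60% of all genes were under the unadjusted threshold. Retinal ganglion cell markers stood below 0 in 4 of 4, with a median of -0.14 and Nefl at -0.42 (SE 0.18). Of all genes 54.7% stood below 0 after quantile normalization, the scaling of these marker counts. The share was 42.5% with the values as deposited and 41.7% with median centring. The lists of endothelium (-0.01), mesenchyme (-0.04), pigment epithelium (-0.04) and lens (-0.03) had medians near 0. The pigment epithelium genes Rpe65 and Tyr fell below the filter. The part of these cells in the small Uhrf1 difference was not tested.

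The genes whose profiles over the 6 arrays were most like those of 3 members were sought by the root mean square difference of mean-centred log2 values among 17468 genes. For Dnmt1 they were Sod1, Bdkrb2 and Lrp2, at 0.010 to 0.011, where the median gene stood at 0.088. For Dnmt3a they were Ppef2, Ptpn21 and 4930402H24Rik, at 0.012 to 0.014. For Uhrf1 they were Fbxo46, Map3k9 and Pim1, at 0.010 to 0.015. With 6 arrays and this many genes some profiles lie close, so the names are a description.

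**Figure D4:**
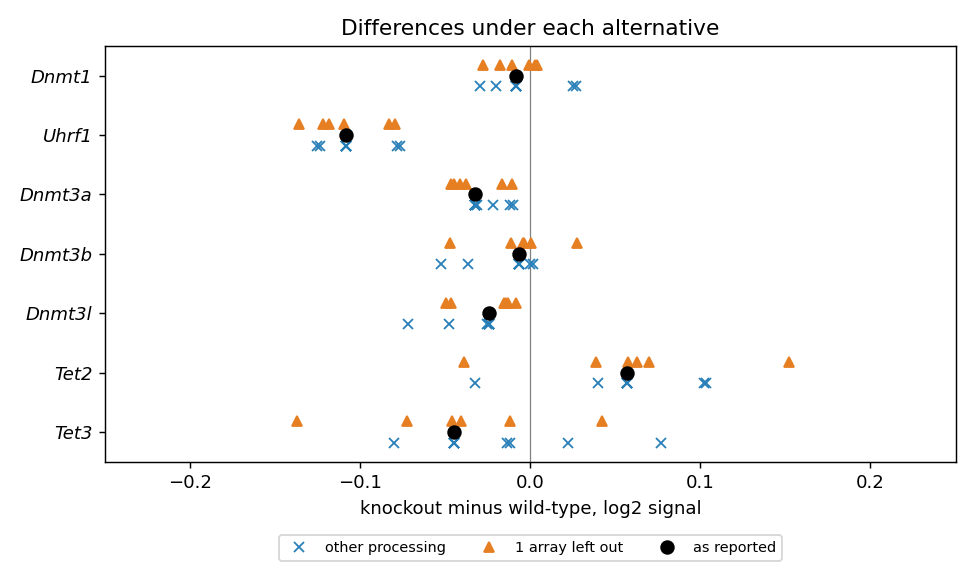
Knockout minus wild-type difference in log2 signal (horizontal axis) for each gene as reported (circles), with 1 array left out (triangles) and under the other settings (crosses). Uhrf1, Dnmt3a and Dnmt3l stay below 0 in all settings drawn, while Dnmt1, Dnmt3b, Tet2 and Tet3 fall on both sides.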

How the data were processed

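RNA of 3 Sall3 knockout and 3 wild-type explant samples was measured on Affymetrix mouse exon arrays. The deposited values are log2 signals per transcript cluster, a scale inferred from their range of 1.48 to 13.86. Per the submitters' processing notes, the tools and build named are Affymetrix Expression Console, PLIER (a probe summary method) and mm8. Versions, roles, background correction and normalization: not given in the sources used here. Column medians differed by 0.103, and values were quantile normalized. Clusters whose mean reached the 25th percentile (3.70) were kept, 75632 in all. Of the clusters 22608 carried 1 symbol, 1462 several and 76773 none in the annotation used, and 22101 symbols were updated through gene identifiers. A gene was represented by its brightest kept cluster.

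A 2-group linear model with moderated variances (limma 3.58.1 under R 4.3.3) was fitted to all kept clusters, and its two-sided p-values were adjusted over them by Benjamini-Hochberg. All adjusted p-values are limma's. On simulated data with 75632 clusters this called 44.2% of genes changed by 1 log2 unit and 96.6% of those changed by 2. These shares hold for the simulated data only. In the explants Opn1sw, at -2.35, was not called, and the smallest adjusted p of any cluster was 0.539. For arrays, their number limits the precision, with 4 residual degrees of freedom. The genes, lists and alternatives were chosen with earlier results of these data known. Named were all members, Sall3, up to 3 genes per pathway list with the smallest p, and the 3 genes nearest in profile to Dnmt1, Dnmt3a and Uhrf1. The promoter motifs were chosen after the array values were seen, as were leaving out knockout 1 and wild-type 3 together and leaving out arrays for the listed genes. Alternatives were values as deposited, median centring, no filter, a 50th percentile filter, an intensity trend, array weights, a replicate block, 1 row per gene, each array left out, and a threshold of 0.1. Plots were made in Python 3.11.15 (matplotlib 3.10.9).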

Additional observations from a re-analysis of the deposited data

How the results depend on the processing

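In all settings tried the number of members called and the number of clusters called stayed at 0 by an adjusted p under 0.05. At 0.1, applied to the fit as reported, both were 0 too. Without wild-type 3 the smallest adjusted p of any cluster was 0.081, so at least 1 cluster would pass 0.1 there. The smallest adjusted p of any member was 0.715, for Uhrf1 with array weights. Of 111 repeated member differences 99 kept their sign and 12 turned, and none of them was called. The filters, the intensity trend, the replicate block and the brightest cluster per gene leave a difference as it is. So does the mean of clusters for a gene with 1 cluster. Signs could not turn in those settings, so the 99 overstates how far the signs were checked. Dnmt1 turned to 0.025 with the values as deposited, 0.027 with median centring, 0.0028 without knockout 2 and 0.0039 without wild-type 1. Dnmt3b turned to 0.0013 with median centring, 0.0004 without knockout 2 and 0.028 without knockout 3. Tet2 turned to -0.039 without wild-type 3 and to -0.033 without knockout 1 and wild-type 3 together. Tet3 turned to 0.022 with array weights, 0.042 without wild-type 3 and 0.077 without knockout 1 and wild-type 3 together. The cause of these turns was not tested. With the mean of its 2 clusters Tet3 stood at -0.080. Apart from that value, the Tet3 values here are those of its brighter cluster. Leaving out 1 array, Dnmt1 ranged from -0.028 to 0.0039, Dnmt3b from -0.048 to 0.028, Tet2 from -0.039 to 0.15, Tet3 from -0.14 to 0.042, Dnmt3l from -0.050 to -0.0086, Uhrf1 ranged from -0.14 to -0.08 and Dnmt3a from -0.05 to -0.01. Without knockout 1 and wild-type 3 together Dnmt3l stood at -0.072. Dnmt3l was not tested with the 50th percentile filter, which it did not pass. Same-numbered arrays deviated together with r = 0.012, -0.093 and 0.083. Differently numbered arrays ranged from r = -0.134 (knockout 1 and wild-type 3) to 0.141 (knockout 1 and wild-type 2). With so few arrays these values cannot decide whether samples were paired by litter or culture run. With the replicate block 0 members were called, and Uhrf1 stood at -0.11 (limma adjusted p = 0.942).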
